A study of Mus musculus with 8 samples.

Results

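Wide peaks are the stretches of RNA on which the crosslinked reads of MBD5 or MBD6 adjoined each other over 400 bp or more. They were chosen by their width alone, as all peaks whose end lay at least 400 bp from their start. Of 29555 peaks in 4 libraries, 1080 were wide, and these are called wide peaks here. Merged on the same strand wherever they overlapped, they formed 491 wide regions. The peaks came from CLIP-seq, in which proteins are crosslinked to RNA with ultraviolet light, immunoprecipitated, and the RNA fragments left on them sequenced. The cells were wild-type mouse embryonic stem (mES) cells that stably overexpressed the coding sequence of human MBD5 or human MBD6 with a 3XFlag tag from a lentiviral vector under hygromycin selection. They were grown with serum, LIF, CHIR99021 and PD0325901, and the labels give embryos as the source of the same cell line. The 8 samples form 4 groups of 2, CLIP and input for either protein, of which the 4 CLIP libraries were used, and the inputs were not analysed here. The characteristics name a Flag antibody, whereas the protocol of the extract gives an anti-MBD6 antibody. The 2 libraries of a protein are not stated to come from separate cultures. Summit reads were compared at wide regions with 1 peak in both libraries and at least 40 summit reads on average. The chi-square per degree of freedom was 0.465 between the Flag-MBD5 libraries (112 regions) and 0.480 between the Flag-MBD6 libraries (239 regions). Between libraries of different proteins it was 3.63 to 4.51. Independent Poisson counts would give about 1, so that the replicates differed by less than Poisson sampling noise. The authors had collapsed identical reads and called peaks with a limit on duplicate reads, and the effect of this on the spread was not tested. The values therefore cannot show whether the 2 libraries of a protein are separate samples. Each protein was counted as 1 sample, with no test between the proteins.

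MBD5 and MBD6 carry a methyl-CpG-binding domain and are partners of the PR-DUB complex, which removes ubiquitin from histone H2A. The study examined them as readers of 5-methylcytosine in RNA. In the protocol, RNase T1 cut the RNA after G, and the fragments were sequenced as small RNA and aligned to the genome without splicing. The peak caller extended each read to 150 bp, so that a peak of exactly 150 bp can rest on a single stack of reads, whereas a wide peak needs a chain of adjoining fragments. Peaks of exactly 150 bp, of which there were 6700, are therefore the comparison used here, and 5396 merged regions of them lay apart from every wide region.

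The RNA under wide peaks was mostly coding sequence, and the coding stretches at their summits are shown first because their codons differed from the rest of the same messages. Each line holds 30 codons, read 5′ to 3′ in frame from the GENCODE transcript of the gene around the summit of the strongest wide peak, with the codons of glutamate and aspartate in capitals. The genes are among those named by the rules for this work, but this selection was made after their codons had been seen. They are an endoplasmic reticulum chaperone (Canx), nucleolin (Ncl), the HSP90 of the endoplasmic reticulum (Hsp90b1), a nucleolar RNA-binding protein (Rbm28), a Golgi coiled-coil protein (Golgb1), a scaffold of protein kinase A (Akap12), the proliferation marker Ki-67 (Mki67) and a splicing-speckle protein (Srrm2).
Canx: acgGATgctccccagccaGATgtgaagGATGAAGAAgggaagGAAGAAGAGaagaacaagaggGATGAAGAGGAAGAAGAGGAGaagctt
Ncl: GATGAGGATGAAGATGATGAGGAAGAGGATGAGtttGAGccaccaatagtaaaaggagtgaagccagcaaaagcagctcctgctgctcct
Hsp90b1: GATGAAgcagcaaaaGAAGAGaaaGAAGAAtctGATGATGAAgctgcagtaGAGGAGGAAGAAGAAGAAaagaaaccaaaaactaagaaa
Rbm28: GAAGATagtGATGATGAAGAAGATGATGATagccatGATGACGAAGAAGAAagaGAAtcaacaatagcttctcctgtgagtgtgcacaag
Golgb1: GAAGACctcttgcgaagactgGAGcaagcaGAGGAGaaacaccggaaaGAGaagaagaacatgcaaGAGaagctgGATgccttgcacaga
Akap12: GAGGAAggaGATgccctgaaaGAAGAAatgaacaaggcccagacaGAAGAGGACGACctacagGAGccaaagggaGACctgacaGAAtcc
Mki67: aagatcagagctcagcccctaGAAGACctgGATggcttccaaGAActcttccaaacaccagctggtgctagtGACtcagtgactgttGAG
Srrm2: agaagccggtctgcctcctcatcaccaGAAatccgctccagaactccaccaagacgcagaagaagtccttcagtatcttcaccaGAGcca
On build mm10 the stretches lie at chr11:50297275-50297364 (- strand, exon 13 of 15), chr1:86357027-86357116 (- strand, exon 3 of 14), chr10:86698319-86698408 (- strand, exon 7 of 18), chr6:29155029-29155118 (- strand, exon 7 of 19), chr16:36916594-36916683 (+ strand, exon 13 of 22), chr10:4357839-4357928 (+ strand, exon 3 of 4), chr7:135696785-135696874 (- strand, exon 12 of 14) and chr17:23819079-23819168 (+ strand, exon 11 of 15). All of them are coding exon. The stretches of Canx, Hsp90b1 and Rbm28 each held 15 acidic codons of 30, and that of Ncl held 12. The count was 12 in Akap12, 8 in Golgb1 and 6 in Mki67. The stretch of Srrm2 stood apart, with 2 acidic codons, 10 serine codons and 8 arginine codons. CpG dinucleotides were few: between 0 and 3 occurred in each of the 8 stretches.

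Wide peaks made up a similar small share of each list. The 2 Flag-MBD5 libraries held 173 and 188 wide peaks, or 3.23% (95% Wilson interval 2.79 to 3.73) and 3.49% (3.03 to 4.01) of their 5362 and 5388 peaks. In the 2 Flag-MBD6 libraries there were 351 and 368, or 3.81% (3.44 to 4.22) and 3.84% (3.47 to 4.24) of 9218 and 9587 peaks. The mean number per library was 1.99 times as high for Flag-MBD6, while the share was 1.14 times as high. The number of reads behind the peak lists, estimated from their background rates, was 2.14 times as high for Flag-MBD6, from 478790 and 500143 reads for Flag-MBD5 to 983918 and 1111742 for Flag-MBD6. When the best 5362 peaks of every library were taken, the share of wide peaks was 1.88 times as high for Flag-MBD6, so that the ratio depended on how many peaks were admitted. Depth and protein cannot be told apart here. Intervals cover counting error only.

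Widths fell off in the same way in all libraries. The median width of wide peaks was 498 and 512.5 bp for Flag-MBD5 and 502 and 506 bp for Flag-MBD6. Peaks of 1000 bp or more numbered 10, 13, 18 and 22, in the order Flag-MBD5 replicates 1 and 2 and Flag-MBD6 replicates 1 and 2, which is kept below. Wide peaks held 9.66%, 10.6%, 11.2% and 11.3% of all bases under peaks. Just below the limit, 20, 14, 33 and 36 peaks measured 390 to 399 bp, and just above it 14, 11, 25 and 17 measured 400 to 409 bp. The median fold enrichment was 16.6, 16.8, 18.9 and 14.0 for the former and 18.8, 17.9, 20.8 and 22.4 for the latter.

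**Figure D1:**
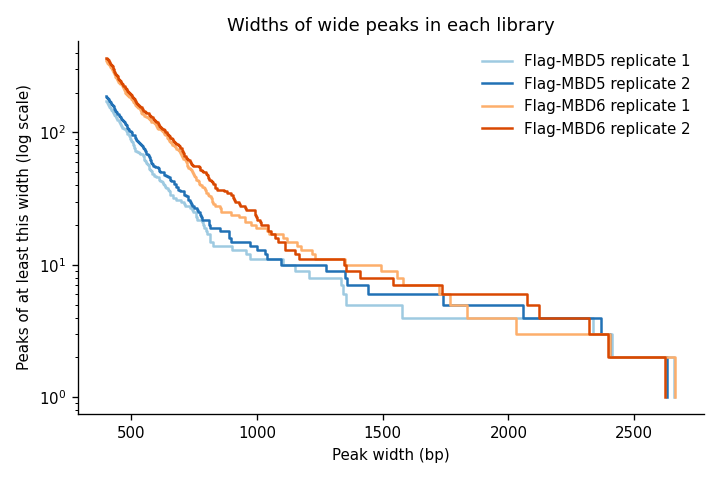
Number of peaks (log scale) at least as wide as the value on the x axis (bp), one line per library. The 2 Flag-MBD6 lines start at 351 and 368 peaks, above the 173 and 188 of Flag-MBD5, and all 4 end between 2624 and 2664 bp.

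Strength was read from the same signal as width and is given as a description. Fold enrichment, the deposited ratio of signal to local background at the summit, had a median of 19.1, 20.1, 21.9 and 21.9 at wide peaks and of 7.68, 7.62, 7.45 and 7.53 at 150-bp peaks. The reads at the summit, solved from the deposited values, had medians of 40, 44.5, 50 and 55.5 against 9, 10, 11 and 12. The local background rate was also higher at wide peaks, with medians of 0.805, 0.857, 0.983 and 1.09 reads against 0.299, 0.312, 0.611 and 0.690. The study's methods do not state whether this background was taken from the input libraries. Fold enrichment and background may therefore reflect the amount of RNA in the input. Summits had no fixed place in a wide peak: between 29.3% and 37.5% of them fell in the 5′, middle and 3′ part of the width, taken as equal parts, in every library.

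The widest of all lay on mitochondrial ribosomal RNA. Its region, at chrM:130-2793 on the plus strand, began in mt-Rnr1, the small ribosomal RNA of the mitochondrion, although the authors had removed ribosomal RNA reads. The peaks there measured 2660, 2632, 2664 and 2624 bp, nearly the same in every library. The enrichment was low, at 10.8-fold, 9.14-fold, 8.62-fold and 5.92-fold, over a local background of 51.5, 62.6, 69.3 and 100.1 reads. Low enrichment also went with width at mt-Co1. This message encodes a subunit of cytochrome c oxidase. There the widths were 1104, 1097, 1103 and 1084 bp and the enrichment was 5.93-fold, 5.67-fold, 4.17-fold and 4.45-fold. In all, 4 of the 491 wide regions were on the mitochondrial chromosome.

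Akap12 had the widest regions of a nuclear gene. Exon 3 of its 4 exons is 4798 nt long, and 2 wide regions, at chr10:4353145-4355550 and chr10:4355623-4358034, covered nearly all of it. Wide peaks lay over 97.0%, 97.6%, 95.7% and 95.02% of the exon. In the 5′ region the peaks measured 2337, 2370, 2405 and 2396 bp, at an enrichment of 61.1-fold, 64.1-fold, 70.8-fold and 44.5-fold. The 3′ region was 1 peak of 2412 and 2406 bp in the Flag-MBD5 libraries. In each Flag-MBD6 library it was 2 peaks, the wider of which measured 1766 and 1347 bp.

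Mki67, Golgb1 and Ankrd11 carried chains of wide regions, all or most of them in 1 long exon. Mki67 had a region at chr7:135696225-135698546 (minus strand, exon 12) whose widest peak measured 1576, 1440, 2030 and 2322 bp. In its exon of 6836 nt, wide peaks covered 48.3%, 54.7%, 57.3% and 68.2%. Golgb1 (chr16:36915014-36917089, exon 13) had widths of 1354, 1356, 1582 and 2075 bp at a highest enrichment of 37.7-fold, 50.3-fold, 65.8-fold and 48.5-fold. Ankrd11, a chromatin regulator, had 4 wide regions in exon 9, all of them wide in all 4 libraries, and wide peaks covered 47.7%, 48.6%, 54.9% and 55.2% of its 6518 nt. The broadest, at chr8:122893043-122894396, kept its width, with 1341, 1349, 1349 and 1354 bp. Its coding sequence held 27.1% acidic codons, against 14.3% in the part of the Ankrd11 coding sequence outside its wide regions.

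**Figure D2:**
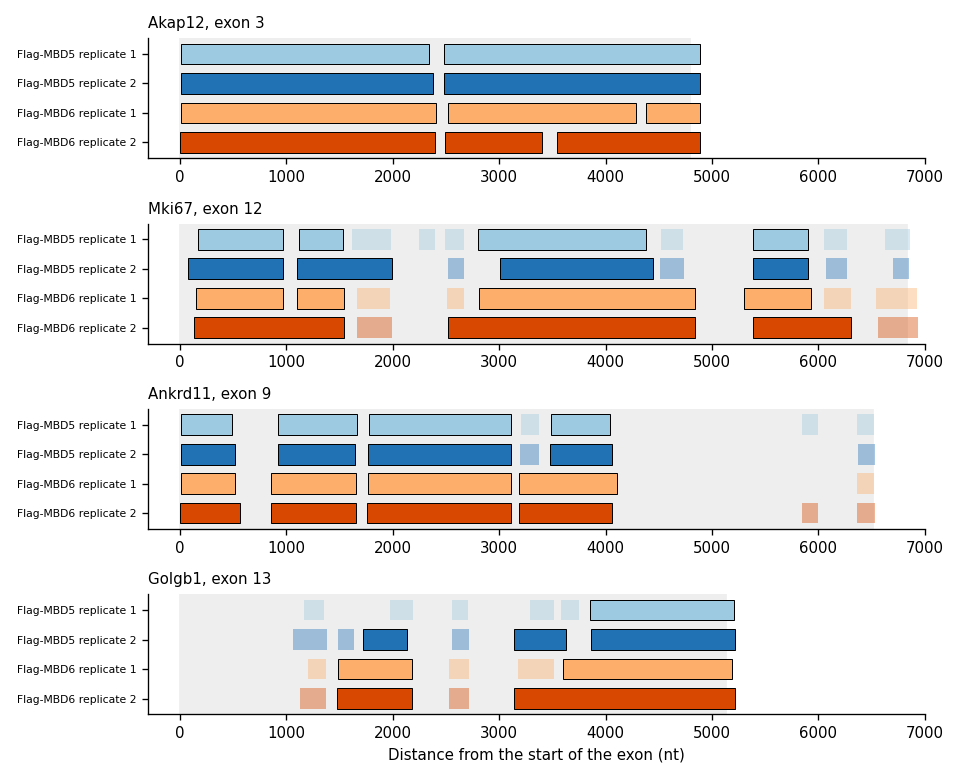
Peaks of each library along 4 long exons, as distance in nt from the start of the exon, whose extent is shaded grey. Outlined bars are wide peaks and pale bars are narrower peaks. The 2 Akap12 regions fill the exon in all 4 libraries, and the wide peaks of Ankrd11 end by 4110 nt.

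The other widest regions also varied between libraries. Srrm2 had widths of 1333, 1741, 1725 and 1737 bp at chr17:23818405-23820151. Map1b, a microtubule-associated protein, had 824, 1273, 1495 and 834 bp at chr13:99429107-99430641. In 2 of these genes the libraries of one protein lay apart from those of the other. The regions had been chosen by their widest peak in any library, which at both was a Flag-MBD6 peak. The estimated depth was also higher for Flag-MBD6, so that the contrast is a description only and its cause was not tested. The region of Dst (chr1:34178228-34180212), a giant cytoskeletal linker, had peaks of at most 409 and 321 bp for Flag-MBD5 and of 1837 and 992 bp for Flag-MBD6. That of Bod1l, a chromosome-stability factor (chr5:41820515-41822070), had at most 349 and 310 bp against 1556 and 1540 bp. In both, the Flag-MBD5 libraries had 3 or 4 separate peaks in the same stretch. The widths given above for Akap12, Mki67 and Golgb1 also lay apart by protein, with Flag-MBD5 the wider at the 3′ region of Akap12.

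**Figure D3:**
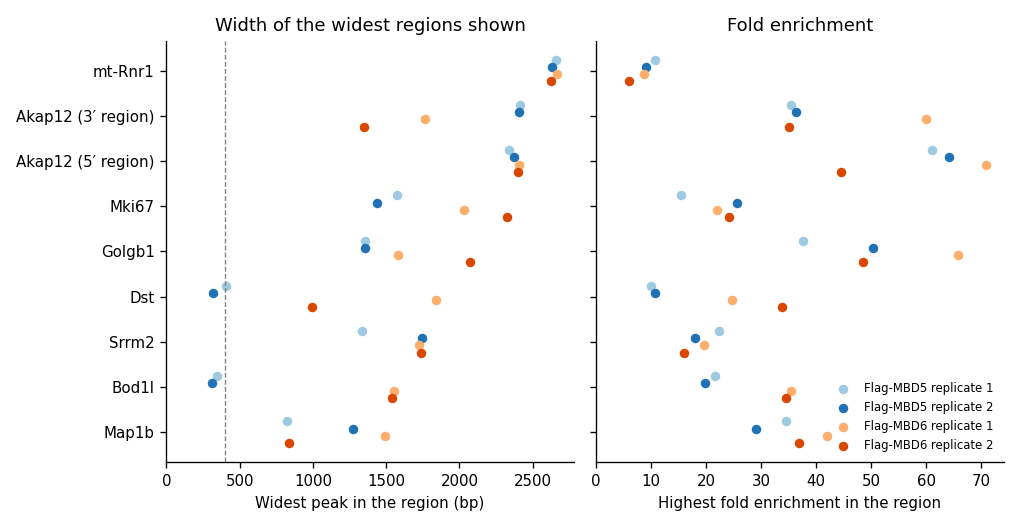
Width in bp of the widest peak (left) and highest fold enrichment of any peak (right) in 9 of the 10 widest merged regions, 1 point per library. The dashed line marks 400 bp. Widths of mt-Rnr1 lie together between 2624 and 2664 bp at low enrichment. Flag-MBD6 widths lie above those of Flag-MBD5 at Dst, Bod1l, Mki67, Golgb1 and the 5′ region of Akap12, and below them at its 3′ region.

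Ranked by fold enrichment in all 4 libraries, the first wide region was on a processed pseudogene. Gm9892 (chr8:52196059-52197053, minus strand), a single-exon copy that shares 87.0% of its 25-nt words with Eif2s2, the message of the β-subunit of eIF2, had enrichments of 98.5-fold, 109-fold, 104-fold and 105-fold. Its peaks measured 498, 567, 580 and 993 bp. The spliced gene Eif2s2 itself had 7 peaks over the 4 libraries, none wider than 294 bp. Ncl followed, with 66.1-fold, 61.4-fold, 101-fold and 71.8-fold at chr1:86356837-86357385, in the exon from which the stretch of Ncl above comes. Widths there were 545, 471, 549 and 480 bp. Canx (chr11:50296944-50297373) had 72.9-fold, 72.6-fold, 61.7-fold and 62.4-fold. Its widths were alike, at 416, 430, 429 and 429 bp, although the exon at its 5′ end is 121 nt long, and the region reached over an intron into a second exon.

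Usp8, a deubiquitinase of endosomes (chr2:126742128-126742670), had 53.1-fold, 51.8-fold, 97.4-fold and 80.2-fold. Ddx21, a nucleolar RNA helicase (chr10:62598120-62598894), had 58.2-fold, 51.7-fold, 73.0-fold and 68.1-fold over widths of 744, 733, 739 and 775 bp. Taf7, a subunit of TFIID, reached 46.3-fold, 45.8-fold, 69.6-fold and 69.7-fold. Hspa5, the HSP70 of the endoplasmic reticulum, reached 39.7-fold, 52.2-fold, 55.4-fold and 46.4-fold at its last exon (chr2:34775588-34776237). Rest, a repressor of neuronal genes, reached 39.6-fold, 42.6-fold, 51.9-fold and 57.7-fold. Its coding region held 10.5% acidic codons, below the 16.1% of the rest of its coding sequence.

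Nearly every wide peak met a peak in the replicate library. Of the wide peaks, 98.3% (95.03 to 99.4), 98.9% (96.2 to 99.7), 99.7% (98.4 to 99.9) and 99.2% (97.6 to 99.7) overlapped a peak of any width there, against 47.7%, 45.5%, 52.2% and 46.0% of 150-bp peaks. A wider peak has more room to overlap and rests on more reads. Among peaks with 20 to 39 summit reads, all 64, 55, 86 and 99 wide peaks met a replicate peak, whereas 30 of 44, 24 of 40, 54 of 83 and 55 of 97 peaks of 150 bp did. The width itself recurred less often. The replicate had a wide peak at 71.7% (64.5 to 77.9), 64.9% (57.8 to 71.4), 74.9% (70.1 to 79.2) and 71.5% (66.7 to 75.8) of wide peaks. At 46, 64, 87 and 102 of them it had only narrower peaks and at 3, 2, 1 and 3 no peak. In the replicate, 2 or more separate peaks lay under 5.78%, 14.9%, 10.3% and 16.6% of wide peaks. Even so, peaks of the replicate covered 88.3%, 86.2%, 90.6% and 88.4% of the bases of wide peaks.

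Between the proteins the overlap was unequal in the 2 directions. Of the Flag-MBD5 wide peaks, 98.8% and 98.9% met a peak of Flag-MBD6 replicate 1, and 79.2% and 80.9% met a wide one. Of the Flag-MBD6 wide peaks, 87.7% and 87.0% met a peak of Flag-MBD5 replicate 1, and 39.0% and 39.1% a wide one. The overlap of 150-bp peaks was more unequal. Of those of Flag-MBD5, 69.7% and 69.1% met a peak of Flag-MBD6 replicate 1. Of those of Flag-MBD6, 16.0% and 15.0% met a peak of Flag-MBD5 replicate 1. The Flag-MBD6 lists are the longer ones, and the part of depth in this difference was not tested. Of the 491 merged regions, 192 were wide in 1 library, 135 in 2, 55 in 3 and 109 in all 4, and 402 had a peak of some width in every library. Regions wide in any Flag-MBD6 library numbered 449 and in any Flag-MBD5 library 234, of which 192 were shared, 42.8% of the former and 82.1% of the latter.

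Both libraries of 1 protein and neither of the other were wide in 100 regions for Flag-MBD6 and 7 for Flag-MBD5. No such count was made for all peaks or for 150-bp peaks, and the part of depth was not tested. At most of these regions the other protein had narrower peaks. In 77 of the 100, both Flag-MBD5 libraries had a narrower peak, and in 10 neither had any. Summit reads rose with width over all peaks of a library (Spearman 0.706, 0.692, 0.706 and 0.705). Their values at regions chosen by width are therefore a description, not a separate difference between the proteins. At the 109 regions wide in all 4 libraries, the median of the highest summit reads was 48, 54, 76 and 87. Over the 100 regions it was 16.5 for both libraries of Flag-MBD5, and 46 and 48.5 for those of Flag-MBD6. The strongest of them included Luc7l3, a splicing factor (383, 383, 401 and 406 bp), Taf1d, a factor of RNA polymerase I (375, 310, 427 and 435 bp), and Hsp90aa1, the inducible cytosolic HSP90 (399, 389, 437 and 405 bp, with its 5′ end in an intron). At the penultimate exon of Mki67 the widths were 349, 358, 428 and 471 bp. Rbm28 differed more, with 254, 245, 537 and 537 bp and 27.4-fold, 26.1-fold, 55.1-fold and 59.9-fold. All 7 regions of the other kind had narrower peaks in both Flag-MBD6 libraries. Hsp90b1 (chr10:86698204-86698636, minus strand) measured 428 and 433 bp for Flag-MBD5 and 239 and 238 bp for Flag-MBD6, with a high enrichment throughout, at 94.1-fold, 84.6-fold, 101-fold and 109-fold. Sptbn1, a β-spectrin, measured 414, 409, 394 and 385 bp. Fn1, fibronectin, measured 456, 489, 219 and 275 bp. Gm7331, a processed pseudogene, measured 430, 453, 340 and 374 bp. Its region shares 86.5% of its 25-nt words with the coding gene Gm11808. An intergenic region at chr13:44869446-44870023 measured 573, 578, 264 and 264 bp.

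At 15 nt inside the 5′ end, 340 of the 491 wide regions were in coding sequence, 104 in non-coding exons, 24 in introns, 10 in 5′ untranslated regions, 10 between genes and 3 in 3′ untranslated regions. The coding share was 69.2% (65.0 to 73.2), against 79.2% (78.1 to 80.3) for 150-bp regions, a difference of -9.96 percentage points (Newcombe interval -14.3 to -5.89), and it was lower in each of the 4 libraries, by 5.29 to 11.9 points. The order turned with the position used. At the midpoint 62.3% of wide and 47.9% of 150-bp regions were coding, and at the summit 66.0% and 52.6%. Of the midpoints of 150-bp regions, 29.9% fell in introns, against 11.4% of those of wide regions. Each read had been extended to 150 bp, so that such a position need not be sequenced RNA. Untranslated 3′ regions were rare at the 5′ end, with 0.611% of wide and 2.37% of 150-bp regions. Non-coding exons held 21.2% of wide and 10.7% of 150-bp regions, a difference of 10.5 points (6.98 to 14.4).

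Wide regions lay in long exons. The median length of the longest annotated exon at their 5′ end was 938 nt, against 215 nt for 150-bp regions, and by library it was 1244, 975, 948 and 969 nt against 209, 208, 214 and 213 nt. Exons of 1000 nt or more held 47.5% of the exonic wide regions and 21.3% of the 150-bp ones, whereas exons under 200 nt held 9.19% and 46.9%. A contiguous genomic peak is bounded by the exon unless it runs over an intron, and how much of the contrast this accounts for was not tested. It was also present among peaks of high read number. Among peaks with 40 or more summit reads, the wide share rose from 3.09%, 3.90%, 4.18% and 4.02% in exons under 200 nt to 30.9%, 33.3%, 28.0% and 26.6% in exons of 1000 nt or more. In total 46.2% of wide regions were inside 1 exon, against 36.9% of 150-bp regions (difference 9.37 points, 4.82 to 14.0).

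**Figure D4:**
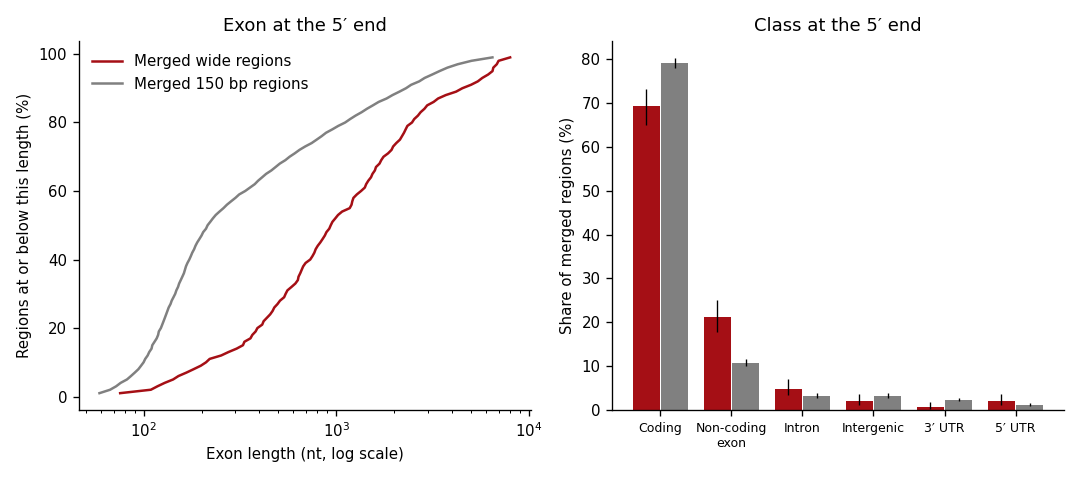
Left, cumulative share (%) of merged wide and 150-bp regions by the length in nt (log scale) of the longest exon at the 5′ end. Right, share (%) of merged regions (wide red, 150 bp grey) by class 15 nt inside the 5′ end, with 95% Wilson intervals. The median exon was 938 nt for wide and 215 nt for 150-bp regions, and the non-coding share was 21.2% against 10.7%.

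Some wide regions joined several exons over short introns. Of the 457 exonic wide regions, 361 touched 1 exon of the chosen transcript, 73 touched 2, 19 touched 3 and 4 touched 4. Only 63 of 5043 exonic 150-bp regions touched 2 or more. The regions over 3 or 4 exons were on messages that included those of the elongation factors Eef1a1, Eef1b2 and Eef2, the helicases Eif4a1 and Eif4a2, Hspa8, Ncl, the splicing proteins Hnrnpa1, Hnrnpa2b1 and Sf3b2, and the nucleolar proteins Ftsj3, Mybbp1a and Ubtf. At Eef1a1 (chr9:78478662-78479694) a peak of 1033 bp in Flag-MBD5 replicate 2 ran over 4 exons, where the other libraries had 2 peaks each, the wider of 444, 436 and 468 bp. At Hspa8, the constitutive HSP70 (chr9:40803054-40804213), the widths were 1149, 630, 1158 and 1149 bp over 3 exons. Its 5′ neighbour was wide in 1 library, and the 3′-most region (chr9:40804304-40805114) was wide in all 4, with 811, 811, 797 and 802 bp and 72.8-fold, 32.5-fold, 51.1-fold and 36.3-fold.

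Pseudogene exons held 80 wide regions, 16.3% of the total, against 7.39% of 150-bp regions (difference 8.90 points, 5.81 to 12.5). Processed pseudogenes are intronless copies of messages, and the aligner kept 1 of the best places for reads that matched up to 10. Reads over sequence that a pseudogene and its coding gene share cannot be told apart, whereas those over distinct sequence can. Of the 80 regions, 68 shared at least 50% of their 25-nt words with a coding transcript and 41 at least 80%. For 23 of the 68 the coding gene had a wide peak itself, for 41 it had peaks of less than 400 bp only, and for 4 it had none in an exon. Gm15459 (chr5:5781618-5783183) matched Hspa8 at 93.5% of its words and had a widest peak of 1206 bp. Gm9118, which matched Npm1, the nucleolar chaperone nucleophosmin, at 72.2%, had one of 834 bp, where Npm1 itself had none above 212 bp. Rpl3-ps1 matched Rpl3, a ribosomal protein, at 100% and had one of 650 bp. Single-exon transcripts as a whole held 20.6% of wide and 9.53% of 150-bp regions.

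The A share at the 5′ end was somewhat lower at wide regions, by an amount that depended on the window. In the first 30 nt of transcript, A made up 35.5% at 445 wide regions and 38.3% at 4959 regions of 150 bp, where C made up 22.5% and 21.3%. The difference of -2.80 points was -0.325 over the first 60 nt, -1.69 against peaks of 150 to under 200 bp and -1.79 without Flag-MBD6 replicate 1. By library the A share was 35.4%, 35.4%, 36.2% and 37.4% for wide peaks against 37.6%, 38.2%, 39.0% and 38.7%. Over the whole exonic part the order turned, with 33.2% A and 60.05% purine at wide regions against 32.5% and 58.2%. The values of wide regions lay above the 28.9% A and 53.9% purine of the 374 whole transcripts that held them. No such value was computed for the transcripts of 150-bp regions. G, after which RNase T1 cuts, stood before the 5′ end at 70.5% of wide and 83.3% of 150-bp regions, and C at 22.1% and 14.6%. CpG occurred at 0.46 of the rate that the C and G contents give along wide regions and at 0.471 along 150-bp regions, with 0.427 in the whole transcripts.

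The codons differed within the same messages. Of 317 coding wide regions with at least 20 codons, 255 (80.4%) held more glutamate and aspartate codons than the remainder of their own coding sequence outside such regions, with medians of 19.5% inside and 14.3% outside. For 150-bp regions it was 1931 of 3116 (62.0%), with 16.3% and 13.5%. The median difference was 4.12 points for wide regions and 2.41 points for 150-bp regions. A 150-bp region holds fewer codons, which spreads its values. By library, 76.9%, 77.6%, 79.4% and 82.1% of wide peaks had the higher share inside, against 63.9%, 62.3%, 59.1% and 61.8% of 150-bp peaks. Lysine codons were above the remainder at 224 of the 317 wide regions (70.7%) and at 2010 of the 3116 regions of 150 bp (64.5%), with median differences of 2.36 and 2.13 points that lay close together. Leucine codons were below it at 211 wide and 1829 150-bp regions, with median differences of -1.41 and -1.15 points. Serine codons were below it at 179 wide and 1975 150-bp regions, with median differences of -0.711 and -1.88 points. Acidic and lysine codons are themselves rich in A and G, so that the codon and base shares are not independent.

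**Figure D5:**
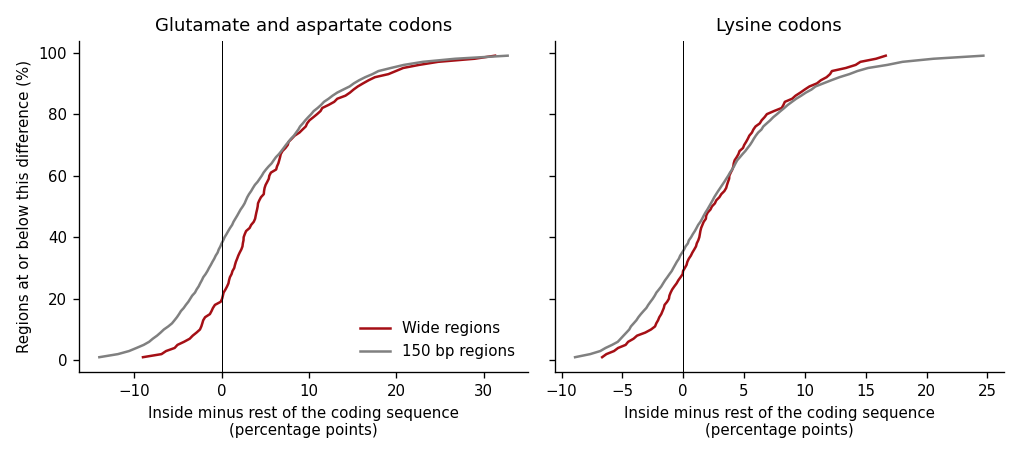
Cumulative share (%) of coding wide regions (red, 317) and 150-bp regions (grey, 3116) by the share of acidic codons (left) or lysine codons (right) inside the region minus that in the rest of the same coding sequence, in percentage points. Values right of 0 are higher inside, as for 80.4% of wide and 62.0% of 150-bp regions for acidic codons.

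Among regions wide in all 4 libraries, the highest acidic share was that of Hnrnpc, which binds nascent transcripts, with 44.4% against 10.3% in the rest of its coding sequence, at chr14:52074980-52075419. Widths there were 427, 432, 436 and 438 bp. Hmgn5, a nucleosome-binding protein with an acidic tail, had 44.1% against 17.9% over 698, 739, 723 and 934 bp. Leo1, a subunit of the PAF1 elongation complex, had 42.0% against 25.7%, and Srcap, a remodelling ATPase, 40.4% against 9.04% at 1 of its 2 regions. The second region of Map1b had 38.6% against 16.1%. These 5 were named after their codon shares had been seen, and they are not the 5 highest. The region of Canx, also wide in all 4 libraries, had 43.3% against 20.3%.

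Exons of 370 genes held the 5′ end of a wide region, 59 of them of 2 or more. The leaders were Dst with 5 regions and Mki67, Ankrd11, Srrm2 and Fat1 with 4, followed by Golgb1, Map1b and Hspa8 with 3 and the largest summed span. Of the Dst regions, those at chr1:34200955-34201478 (516, 516, 515 and 507 bp) and chr1:34225609-34226101 (484, 482, 472 and 453 bp) lay in exons of 546 and 496 nt. The region at chr1:34227841-34229315, in an exon of 1472 nt, held 2 peaks in every library, the wider of 783, 972, 499 and 608 bp. In Fat1, a giant cadherin, 1 of the 4 regions was wide in all libraries. Its enrichment at chr8:45044153-45044657 was 3.53-fold, 9.25-fold, 18.6-fold and 20.1-fold, and its widths were 459, 488, 488 and 505 bp. In Srrm2 all 4 regions lay in exon 11, and the shares of acidic codons were 1.01%, 5.81%, 15.8% and 4.99%, against 7.76% elsewhere in its coding sequence.

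Of 5111 genes with an exonic peak in any library, 373 had a wide peak in one, or 7.3%. The lists of genes, all chosen with earlier results of these data known, are read against this background. Of the 12 HSP90 and HSP70 chaperones, 10 had a peak and 5 a wide one (Hsp90aa1, Hsp90ab1, Hsp90b1, Hspa5 and Hspa8). Of 22 acidic-stretch proteins, all had a peak and 8 a wide one: Ncl, Canx, the FACT subunit Supt16, the elongation factor Supt6, the rDNA transcription factor Ubtf, the protease Nrd1 and the nucleolar proteins Nolc1 and Tcof1. Those without included Npm1, Set, Ptma and Hmgb1. Among 22 remodelling ATPases, 20 had a peak and 6 a wide one (Chd4, Chd6, Chd8, Atrx, Ep400 and Srcap). For Atrx, the widest peak measured 299, 579, 601 and 994 bp.

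Initiation factors counted 21 of 24 with a peak and 5 with a wide one (Eif3a, Eif3c, Eif4a1, Eif4a2 and Eif5b). Eif3a, the scaffold subunit of eIF3, had widest peaks of 652, 570, 690 and 429 bp and enrichments up to 81.2-fold, 66.4-fold, 102-fold and 118-fold. Of 17 giant actin-linked genes, 15 had a peak and 3 a wide one (Sptbn1, Actn4 and Dst). Of 85 ribosomal protein genes, 65 had a peak and 8 a wide one. The list was taken by symbol, and 11 genes that are not ribosomal proteins (the S6 kinases and Rps19bp1) were left out of it after the values had been seen. None of the 8 was wide in more than 2 libraries. Among 9 nuclear long non-coding RNAs, 8 had a peak and 1 a wide one. That was Malat1, a single-exon RNA of nuclear speckles, with widest peaks of 490, 490, 704 and 954 bp and enrichments up to 50.7-fold, 39.3-fold, 47.4-fold and 39.4-fold.

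Of 8 pluripotency markers, 7 had a peak in some library. Sox2, Esrrb and Zfp42 had peaks in all 4, whereas Pou5f1 and Nanog had them in the Flag-MBD6 libraries only, Dppa5a in 3 libraries, Klf4 in 1 and Utf1 in none. A marker without a peak says nothing about its level. Zfp42 alone had a wide peak, of 653 bp, in Flag-MBD6 replicate 2, where its peaks in the others measured at most 273, 303 and 303 bp.

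Outside exons, wide regions were few. The 3 widest with a 5′ end in no exon were in introns of Ppp4r1l-ps (chr2:173635986-173637396), Rnf169, a ubiquitin ligase (chr7:99939426-99940131), and the lysophosphatidic acid receptor gene Lpar1 (chr4:58483278-58483977). None of the 3 had a peak in either Flag-MBD5 library. In the Flag-MBD6 libraries the widest peaks were 855 and 699 bp, 706 and 290 bp, and 700 and 295 bp, at enrichments of 9.19-fold and 9.42-fold, 17.7-fold and 16.3-fold, and 24.3-fold and 28.9-fold.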

How the data were processed

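Peaks were analysed in 4 CLIP libraries of mES cells, 2 each of Flag-MBD5 and Flag-MBD6. According to the study's methods, the authors clipped, filtered and collapsed the reads, removed ribosomal RNA, aligned the rest to mm10 with Bowtie (1.0.0) without splicing, keeping 1 place for reads that matched up to 10, split strands with SAMtools (1.16.1) and called peaks on each strand and library with MACS2 (2), with extension to 150 bp, a genome size of 130000000 and q under 0.01. The deposited score is 10 times −log10 q. Fold enrichment, as deposited, is the ratio of summit signal over the background rate that the peak caller used there. The study's methods do not name the control for this rate, which may be the input libraries. The deposited −log10 columns hold the p and q of each peak, and the deposited other columns give the position, strand and summit.

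Wide regions and all gene lists were chosen with earlier results of these data known. The lists of named regions followed rules: the 10 widest, the 10 strongest of those wide in all 4 libraries, the 8 genes with most regions, the 5 strongest wide for 1 protein only (each way), the 3 widest outside exons, and list members. The codon shares, the 25-nt word matches, the share by summit reads and the comparison of replicates with sampling noise were added after the values had been seen. An overlap of 1 bp on the same strand counted. Summit reads and background rates were solved from the fold and −log10 p as a whole number and a Poisson rate (largest error 0.0013 in −log10 p). The depth per library was estimated from the lowest rates. Annotation and transcript sequence were those of GENCODE M21, on the same build. A peak was assigned 15 nt inside its 5′ end, in the order coding, 3′ UTR, 5′ UTR, non-coding exon, intron. No test was made, because the members were chosen by their readout and each protein counted as 1 sample. Intervals are 95% Wilson or Newcombe intervals. Analyses used Python 3 scripts tested on simulated data. Alternatives covered the width limit, the q and fold minimum, equal numbers of peaks, the overlap, the comparison peaks, the assigned position, the exon, the window, the transcripts and leaving out each library. Input samples were not analysed here, although the deposited background rates may rest on them. One of the 10 widest regions is not reported here.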

Additional observations from a re-analysis of the deposited data

Results flagged for a closer look

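The share of C along the exonic part of wide peaks, minus that of 150-bp peaks, had opposite signs for the proteins. It was 22.9% against 22.7% and 22.738% against 22.735% in the Flag-MBD5 libraries, and 21.7% against 22.1% and 21.3% against 22.2% in the Flag-MBD6 libraries. The mean difference of Flag-MBD6 minus that of Flag-MBD5 was -0.803 percentage points. In Flag-MBD5 replicate 2 the shares were nearly equal, so that the sign there carries little weight. The difference between the proteins was not tested.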

How the results depend on the processing

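No paired analysis was possible because no result comes from a test. A value counted as moved when it left its 95% interval, changed by more than 1 SD between libraries or, for a count, by over 1.5 times. Of 69 recomputed values, 55 stayed within that limit. With limits of 300 and 500 bp the number of merged wide regions was 1161 and 242, the number of genes with 2 or more 163 and 31, and the ratio of median exon lengths (main value 4.36) 3.54 and 5.86. The cause of the change in exon length was not tested. The ratio of the wide share between Flag-MBD6 and Flag-MBD5 (main value 1.14) was 1.05 at 300 bp and 1.88 with equal numbers of peaks. The difference in coding share, -9.96 points at the 5′ end, reversed to 14.4 at the midpoint and 13.4 at the summit. At these positions introns held 29.9% and 25.7% of 150-bp regions, against 11.4% and 6.72% of wide regions. The difference in A share of the first 30 nt, -2.80 points, was -1.69 against peaks of 150 to under 200 bp and -0.325 over the first 60 nt. Without each library in turn, it lay between -3.33 and -1.79. The ratio of median fold enrichment, 2.74, was 2.14 against peaks of 150 to under 200 bp. Fewer than 40 wide peaks a library lie within 10 bp above the limit, and the peak lists give no read counts, so that depth is an estimate.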
